A study of Rattus norvegicus with 10 samples.

Results

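Astrocytes surround the magnocellular neurones of the supraoptic nucleus (SON), the hypothalamic nucleus whose neurones make vasopressin and oxytocin, and 10 genes of these glial cells were followed from normal hydration to water deprivation. They were taken by gene symbol: the intermediate filament genes Gfap, Vim and Nes, the gap junction genes Gja1 and Gjb6, the water channel gene Aqp4, the calcium-binding protein gene S100b, the enzyme genes Glul and Aldh1l1, and the transcription factor gene Sox9. Each symbol matched 1 Ensembl gene among 32402 listed, and all 10 were among the 15311 genes with enough counts to be tested. Polyadenylated RNA of the SON of Wistar Han rats was sequenced in 5 libraries from euhydrated rats, which could drink freely, and 5 from dehydrated rats, kept 72 h without drinking water. Per the labels' protocols the nucleus was punched on both sides with a 1 mm corer from 12 coronal slices. No transgene or other treatment is named for either group, and age and sex were not among the labels used. The labels do not say that each library came from 1 animal, so the p-values measure the spread between these libraries, which may be partly technical.

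Astrocytes of the SON are known to be plastic: during sustained stimulation of the nucleus their processes withdraw from between the neurones. Their filaments are built from glial fibrillary acidic protein (Gfap) and vimentin (Vim), with nestin (Nes) in immature or reactive cells. Connexin 43 (Gja1) and connexin 30 (Gjb6) join neighbouring astrocytes, aquaporin 4 (Aqp4) carries water across the membrane of their endfeet, and glutamine synthetase (Glul) turns glutamate taken up from synapses into glutamine.

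The total of assigned counts per library was 24268398 to 28491926, and the 10 genes together took 0.645% to 0.754% of them. Levels are CPM (counts relative to library size) after TMM scaling, a factor per library that ran from 0.978 to 1.03. CPM is not corrected for transcript length, so levels are compared between libraries and not between genes. FDR stands for the p-value of edgeR's quasi-likelihood test after Benjamini-Hochberg adjustment over all genes tested, and "passed" means an FDR under 0.05. Fold changes are dehydrated over euhydrated. The samples are bulk punches. A change in the number of astrocytes, in RNA per astrocyte or in other cells with the same transcript cannot be told apart.

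Of the 10 genes, Glul alone passed the test, and it was higher in dehydrated rats. None was lower. Across all genes tested 12.7% passed, 7.79% higher and 4.90% lower, so 1 of 10 lies close to that background. The median log2 fold change of the 10 genes was -0.037, against -0.0058 for all genes tested. The log2 fold change was positive for 4 of the 10 (Glul, Nes, Vim and Gjb6) and negative for 6 (Aqp4, Gfap, Aldh1l1, Gja1, S100b and Sox9). At an unadjusted p under 0.05 there were 2 of 10, Glul and Nes, both higher, against 26.4% of all genes. DESeq2 and limma-voom each called 1 of the 10, Glul. Without dehydrated 5, Nes and Vim also passed, which made 3 of 10, and without euhydrated 3 Nes did, which made 2 of 10.

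**Figure D1:**
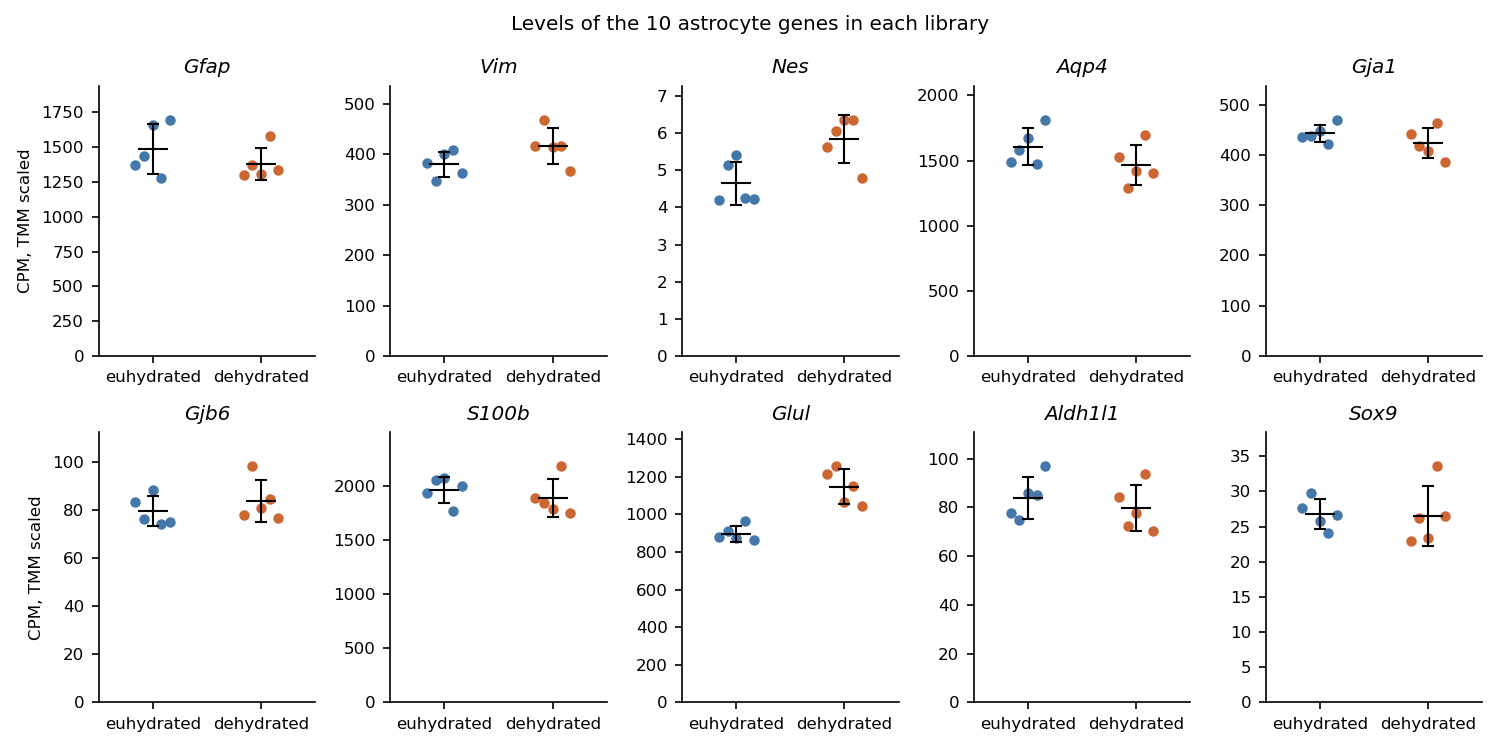
Level of each gene (CPM after TMM scaling, vertical axis from 0) in the 5 euhydrated and 5 dehydrated libraries. Points are libraries, the horizontal bar is the group mean and the error bar 1 SD; the groups are separate for Glul (861 to 963 against 1044 to 1256 CPM) and overlap for the other 9 genes.

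Glul (ENSRNOG00000049560) stood at 877, 909, 872, 963 and 861 CPM in euhydrated libraries 1 to 5 and at 1216, 1256, 1064, 1151 and 1044 CPM in dehydrated libraries 1 to 5. Every dehydrated library was above every euhydrated one. In 10.9% of all genes tested the groups were likewise apart. The euhydrated mean was 897 ± 41.3 CPM and the dehydrated mean 1146 ± 92.2 CPM, a 1.28-fold rise (SD, n = 5 per group; log2 fold change 0.35 ± 0.05, SE; FDR = 0.000403), and its 95% interval ran from 1.19- to 1.38-fold. The difference of the means was larger than the whole range within either group. In the authors' deposited table the log2 fold change of Glul was 0.35 with an SE of 0.05 and an adjusted p of 2.55e-09.

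Other astrocyte transcripts moved in both directions. The list of 44 other astrocyte markers was chosen from textbook knowledge with earlier results of these data known, and all were tested. Of these 5 were higher, 5 lower and 34 did not pass. Across all genes tested 7.79% were higher and 4.90% lower. The median log2 fold change of the 44 markers was -0.016. Their summed level ran from 22017 to 24189 CPM without and from 22591 to 24684 CPM with water deprivation. With the mean log2 level of these markers as a covariate Glul had a log2 fold change of 0.35 ± 0.05 (FDR = 0.000978). Oligodendrocytes also express Glul. Of 15 oligodendrocyte markers tested 0 were higher and 2 lower, the summed level was 10597 to 15299 against 10124 to 12934 CPM, and with that marker level as a covariate Glul had a log2 fold change of 0.36 ± 0.06 (FDR = 0.00159).

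RefSeq (assembly GRCr8) lists 2 transcription starts for Glul, and the window from 250 bases before to 50 after each start is printed here since Glul was the member that changed. Capitals mark CCAAT, or ATTGG where it lies on the other strand; the motif was searched on both strands. The genome build of the count table could not be read from the labels or headers, and these coordinates belong to the reference alone.
Glul start 1, chr13:68519250-68519549, plus strand: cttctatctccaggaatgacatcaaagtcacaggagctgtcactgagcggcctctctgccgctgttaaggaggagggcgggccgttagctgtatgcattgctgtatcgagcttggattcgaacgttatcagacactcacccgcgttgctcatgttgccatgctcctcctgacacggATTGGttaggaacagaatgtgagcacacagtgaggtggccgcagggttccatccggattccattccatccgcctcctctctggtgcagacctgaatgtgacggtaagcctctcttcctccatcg
Glul start 2, chr13:68575816-68576115, plus strand: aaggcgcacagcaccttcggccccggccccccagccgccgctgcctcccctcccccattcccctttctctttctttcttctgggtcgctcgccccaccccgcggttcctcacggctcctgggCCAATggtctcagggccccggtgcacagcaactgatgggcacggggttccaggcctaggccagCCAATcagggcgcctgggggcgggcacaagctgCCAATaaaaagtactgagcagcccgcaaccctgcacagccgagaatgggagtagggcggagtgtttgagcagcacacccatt

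The second window held CCAAT 3 times on the printed strand, and the first held it 1 time on the opposite strand. CCAAT was found in 7 of the 12 windows listed for 9 of the members (in Glul, S100b, Aldh1l1, Vim, Gja1 and Aqp4), and in 37.5% of 33469 rat promoter windows. The half-site of the glucocorticoid receptor, AGAACA, was in neither Glul window and in 20.7% of all windows. The AP-1 motif TGACTCA (4.63% of all windows) and the STAT motif TTCNNNGAA (8.87%) were also absent from both. The counts are of whole genes and do not say which start was used.

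Partners of glutamine synthetase in the glutamate and glutamine cycle were tested next, beside the background of 12.7% of all genes that passed. Of 16 other genes 1 was higher, 1 lower and 14 did not pass, with a median log2 fold change of -0.021. Glud1, for glutamate dehydrogenase, which breaks glutamate down, fell 1.14-fold from 595 ± 39.8 to 524 ± 17.6 CPM (SD, n = 5; log2 fold change -0.18 ± 0.04, SE; FDR = 0.00874), a call held in 19 of 22 alternative analyses with FDR up to 0.360. Slc38a3, for a glutamine carrier of astrocytes, rose 1.10-fold from 87.5 ± 3.57 to 96.0 ± 5.45 CPM (FDR = 0.0498) and passed in 6 of the 22, with FDR of 0.0103 to 0.199. The glutamate carriers Slc1a3 (GLAST) and Slc1a2 (GLT-1) had log2 fold changes of -0.058 ± 0.03 and 0.13 ± 0.08 (FDR = 0.302 and 0.364).

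Among the filament genes, Gfap (ENSRNOG00000002919), the classical astrocyte filament gene, was at 1373, 1433, 1656, 1276 and 1697 CPM in euhydrated 1 to 5 and at 1302, 1370, 1304, 1583 and 1339 CPM in dehydrated 1 to 5. The groups overlapped over most of their range, and 4 of 5 dehydrated libraries lay below the euhydrated mean. The means were 1487 ± 182 and 1380 ± 117 CPM (SD, n = 5; log2 fold change -0.11 ± 0.09, SE; FDR = 0.485). The 95% interval of the ratio, 0.811 to 1.06, includes 1. Dehydrated 4 stood above the rest of its group. Leaving out 1 library at a time gave log2 fold changes from -0.16 without dehydrated 4 (FDR = 0.252) to -0.055 without euhydrated 5 (FDR = 0.740), with -0.064 without euhydrated 3.

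Vim (ENSRNOG00000018087), for vimentin, was at 383, 347, 401, 408 and 362 CPM in euhydrated 1 to 5 and at 416, 469, 416, 417 and 367 CPM in dehydrated 1 to 5. Dehydrated 5 lay within the euhydrated range and the other 4 above it. The means were 380 ± 25.6 and 417 ± 36.1 CPM (log2 fold change 0.13 ± 0.06; FDR = 0.196), and without dehydrated 5 Vim passed (0.18, FDR = 0.0474), whereas without dehydrated 2 the log2 fold change was 0.087 (FDR = 0.341). Vim is also expressed by endothelial, meningeal and ependymal cells. Of 14 leptomeningeal fibroblast markers 0 passed in edgeR (3 higher at an unadjusted p under 0.05, 2 higher in DESeq2), and their summed level ran from 2653 to 4515 CPM in the euhydrated group and from 3744 to 4691 CPM in the dehydrated group, and of 11 endothelial markers 2 were higher. The part of endothelial cells in the level of Vim was not tested. With the meningeal marker level as a covariate Vim had a log2 fold change of 0.045 (FDR = 0.661). That marker level itself differed between the groups by 0.16 (log2). With the astrocyte, oligodendrocyte and erythrocyte marker levels the log2 fold change of Vim was 0.13, 0.14 and 0.22 (FDR = 0.227, 0.254 and 0.0944).

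Nes (ENSRNOG00000018681), for nestin, was the least counted of the 10, with 112 to 172 counts per library. It was at 4.19, 5.15, 5.41, 4.26 and 4.24 CPM in euhydrated 1 to 5 and at 5.64, 6.07, 6.36, 6.36 and 4.80 CPM in dehydrated 1 to 5. Again dehydrated 5 lay within the euhydrated range and the other 4 above it. The means were 4.65 ± 0.582 and 5.85 ± 0.655 CPM, 1.26-fold apart (log2 fold change 0.33 ± 0.11; FDR = 0.0644), so Nes missed the threshold at a fold close to that of Glul. In the authors' deposited table its adjusted p was 0.0538. It passed without dehydrated 5 (log2 fold change 0.39, FDR = 0.0317) and without euhydrated 3 (0.39, 0.0403). With astrocyte, oligodendrocyte, meningeal and erythrocyte marker levels as covariates in separate fits, the log2 fold change of Nes was 0.32, 0.28, 0.27 and 0.36. The FDR was 0.0774, 0.145, 0.237 and 0.201 in that order. These fits do not measure the part of each cell type in the level of Nes. Endothelial and pericyte marker levels were not used as covariates, and the part of these cells was not tested.

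The ratio of the filament genes Gfap and Vim within each library does not depend on how libraries are scaled. The log2 ratio of Gfap to Vim was 1.96 ± 0.22 in euhydrated and 1.73 ± 0.16 in dehydrated libraries (SD, n = 5), a difference of -0.23 (exact two-sided permutation p = 0.111; adjusted p = 0.143 over 2 ratios). Without euhydrated 4, the library with the least Gfap, the difference was -0.31 (exact permutation p = 0.0476, not adjusted; 0.0476 to 0.206 over the 10 fits without 1 library). Of 11 other filament and linker genes tested 1 was higher, 1 lower and 9 did not pass. These 2 are neuronal filament genes: Prph, for peripherin, rose 2.03-fold (21.3 ± 2.07 against 43.1 ± 7.05 CPM, FDR = 0.000164), and Nefl, for the neurofilament light chain, fell 1.14-fold from 405 ± 24.9 to 355 ± 11.7 CPM (FDR = 0.00519).

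**Figure D2:**
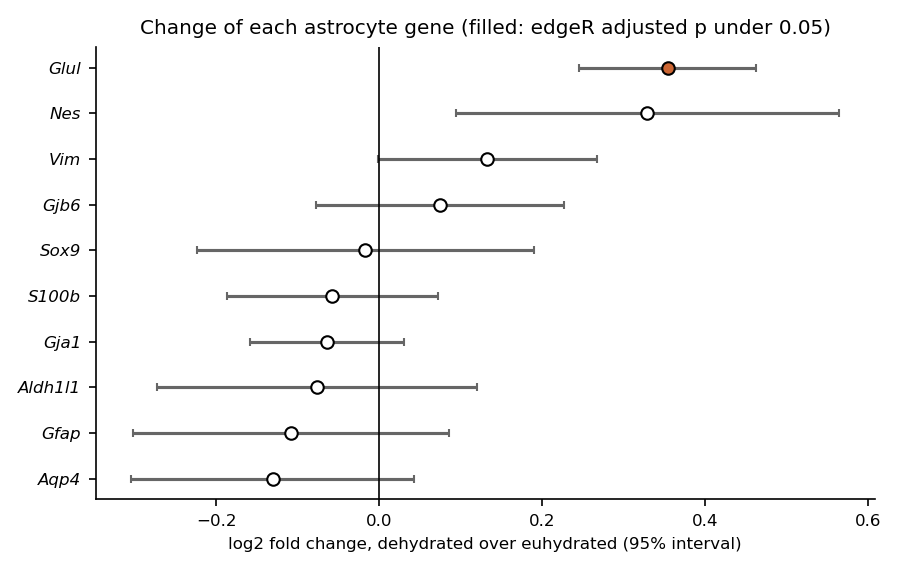
Log2 fold change of each gene, dehydrated over euhydrated (horizontal axis), with its 95% interval; the filled point marks the gene past an FDR of 0.05. Glul (0.35) is the 1 filled point, Nes (0.33) has an interval of 0.09 to 0.56 before adjustment, and the intervals of the other 8 genes include 0.

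The gap junction genes did not pass. Gja1 (ENSRNOG00000000805), for connexin 43, was at 437, 438, 447, 422 and 470 CPM in euhydrated 1 to 5 and at 442, 418, 408, 464 and 386 CPM in dehydrated 1 to 5. Dehydrated 2, 3 and 5 lay below all euhydrated libraries and the other 2 within their range. The means were 443 ± 17.6 and 424 ± 30.2 CPM (log2 fold change -0.064 ± 0.04; FDR = 0.393), with a 95% interval of the ratio of 0.896 to 1.02. Without 1 library the log2 fold change ran from -0.099 (dehydrated 4 left out) to -0.032 (dehydrated 5 left out), and was -0.040 without euhydrated 5.

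Gjb6 (ENSRNOG00000022116), for connexin 30, was at 83.7, 76.5, 88.5, 74.3 and 75.2 CPM in euhydrated 1 to 5 and at 78.1, 98.4, 81.1, 84.8 and 77.0 CPM in dehydrated 1 to 5. Dehydrated 2 alone was above the euhydrated range. The means were 79.6 ± 6.18 and 83.9 ± 8.66 CPM (log2 fold change 0.07 ± 0.07; FDR = 0.551). Without dehydrated 2 the log2 fold change was 0.011 (FDR = 0.932), and the highest value with 1 library left out was 0.12, without euhydrated 3 (FDR = 0.316). The log2 ratio of Gja1 to Gjb6 was 2.48 ± 0.12 in euhydrated and 2.34 ± 0.16 in dehydrated libraries, a difference of -0.14 (exact two-sided permutation p = 0.143; adjusted p = 0.143 over 2 ratios). Without 1 library it ran from -0.18 without dehydrated 1 to -0.075 without dehydrated 2 (exact permutation p of 0.0873 to 0.341, not adjusted, over the 10 fits).

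Of 13 other connexin, pannexin and junction scaffold genes tested 1 was higher, 1 lower and 11 did not pass, with a median log2 fold change of -0.045. Panx1, for the membrane channel pannexin 1, rose 1.27-fold (log2 fold change 0.35 ± 0.08, FDR = 0.0117), and passed in 20 of 22 alternative analyses (FDR up to 0.161). Gjb2, for connexin 26, which astrocytes share with meningeal cells, fell 1.33-fold from 52.9 ± 8.34 to 39.9 ± 4.11 CPM (FDR = 0.0473). Its groups overlapped, and the call held in 5 of 22 alternative analyses and in 1 of the 10 fits without 1 library (FDR of 0.000856 to 0.750).

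Aqp4 (ENSRNOG00000016043), the water channel of the endfeet, was at 1486, 1579, 1676, 1475 and 1814 CPM in euhydrated 1 to 5 and at 1524, 1291, 1418, 1698 and 1404 CPM in dehydrated 1 to 5. Dehydrated 2, 3 and 5 were below all euhydrated libraries, while dehydrated 4 was above all of them but euhydrated 5. The means were 1606 ± 142 and 1467 ± 153 CPM (log2 fold change -0.13 ± 0.08; FDR = 0.329), and the 95% interval of the ratio was 0.810 to 1.03. The log2 fold change was smallest without euhydrated 5 (-0.082, FDR = 0.540) and largest without dehydrated 4 (-0.19, FDR = 0.0942). Of the other aquaporins 3 could be tested and 0 passed in edgeR, at an unadjusted p under 0.05 or in DESeq2, Aqp9 at a log2 fold change of -0.15 ± 0.19 and Aqp11 at -0.10 ± 0.09 among them (FDR = 0.677 and 0.510).

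Genes for the complex that anchors Aqp4 to the basal lamina, built on dystrophin and dystroglycan, and for the laminins it binds were tested alongside. Of 21 genes 3 were higher, 0 lower and 18 did not pass. The 3 encode laminin chains of the basal lamina and not the anchoring complex. A further laminin chain gene on the list, Lama1, did not pass and had a negative log2 fold change (-0.15 ± 0.08, FDR = 0.265). Lamc1 rose 1.18-fold from 74.9 ± 2.23 to 88.2 ± 3.13 CPM (FDR = 0.000369), Lama2 1.16-fold (0.0112) and Lamb2 1.11-fold (0.0304). Lamb2 lost its call in 11 of 22 alternatives, with FDR up to 0.175, while Lama2 kept it in 19 (FDR up to 0.232) and Lamc1 in all 22.

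S100b (ENSRNOG00000001295), for a calcium-binding protein released by astrocytes, was at 1934, 2050, 2066, 1770 and 1995 CPM in euhydrated 1 to 5 and at 1889, 1835, 1781, 2178 and 1748 CPM in dehydrated 1 to 5. The groups overlapped, with both the highest and the lowest library in the dehydrated group. The means were 1963 ± 120 and 1886 ± 172 CPM (log2 fold change -0.058 ± 0.06; FDR = 0.598), and with 1 library left out the log2 fold change ran from -0.11 (dehydrated 4) to -0.032 (dehydrated 5). Of 10 other genes tested on the S100 list 1 was higher and 2 lower. That list also holds S100pbp, for a protein that binds an S100 protein. S100a10, whose protein binds annexin A2, rose 1.32-fold from 32.9 ± 4.16 to 43.4 ± 3.30 CPM (FDR = 0.00821), while S100a13 and S100a16 fell 1.23- and 1.15-fold (0.00934 and 0.0112). Each of the 3 passed in 21 of 22 alternatives, with FDR up to 0.0737, 0.124 and 0.0770.

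Aldh1l1 (ENSRNOG00000047023), for the cytosolic folate enzyme widely used as an astrocyte marker, was at 77.5, 74.8, 85.8, 84.9 and 96.8 CPM in euhydrated 1 to 5 and at 84.3, 72.3, 77.9, 93.5 and 70.3 CPM in dehydrated 1 to 5. The groups overlapped. The means were 84.0 ± 8.60 and 79.6 ± 9.46 CPM (log2 fold change -0.077 ± 0.09; FDR = 0.648), and with 1 library left out the log2 fold change ran from -0.14 (dehydrated 4) to -0.019 (euhydrated 5). Of 15 other folate one-carbon genes 3 were higher, 0 lower and 12 did not pass. All 3 act in mitochondria: Aldh1l2, the mitochondrial counterpart of Aldh1l1, rose 1.82-fold from 4.68 ± 0.568 to 8.53 ± 1.51 CPM (FDR = 0.000250), Mthfd2 1.67-fold (3.92e-05) and Shmt2 1.42-fold (3.33e-06). Mthfd1l and Mthfd2l, also for mitochondrial enzymes, did not pass (log2 fold change 0.090 ± 0.07 and 0.21 ± 0.10, FDR = 0.429 and 0.205). The list is not restricted to astrocyte genes.

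Sox9 (ENSRNOG00000002607), a transcription factor of astrocyte fate, was at 27.7, 29.8, 25.8, 24.1 and 26.6 CPM in euhydrated 1 to 5 and at 23.0, 26.3, 23.4, 33.6 and 26.5 CPM in dehydrated 1 to 5. Dehydrated 4 lay above every euhydrated library and the other 4 dehydrated libraries below the euhydrated mean. The means were 26.8 ± 2.12 and 26.5 ± 4.25 CPM (log2 fold change -0.017 ± 0.10; FDR = 0.939), with a 95% interval of the ratio of 0.856 to 1.14. Of 23 other fate regulators 1 was higher, 2 lower and 20 did not pass, with a median log2 fold change of -0.11. Id3, an inhibitor of basic helix-loop-helix factors, fell 1.26-fold from 63.6 ± 2.76 to 50.6 ± 4.66 CPM (FDR = 0.00132), and Sox2, a factor of neural progenitors and astrocytes, 1.23-fold from 67.4 ± 3.48 to 55.0 ± 4.41 CPM (0.00167). Sox2 passed in all 22 alternatives and Id3 in 20 (FDR up to 0.0982). Stat3 rose 1.08-fold (FDR = 0.0461), a call held in 6 of 22 alternatives, with FDR of 0.0301 to 0.199.

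Potassium, bicarbonate and related transport genes outside the members were mixed. Their list is not restricted to genes of astrocytes. Of 11 genes for potassium and bicarbonate handling 2 were higher, 1 lower and 8 did not pass. The potassium channel genes Kcnk1 and Kcnj16 rose 1.17- and 1.18-fold (FDR = 0.00225 and 0.0130), and Fxyd7, for a regulator of the sodium pump, fell 1.23-fold (0.0146). Kcnj10, also for a potassium channel, did not pass, at 57.4 ± 5.01 against 54.2 ± 3.52 CPM (log2 fold change -0.083 ± 0.06, FDR = 0.414). Of 22 alternatives Kcnk1 passed in 21, Kcnj16 in 20 and Fxyd7 in 19, with FDR up to 0.119, 0.187 and 0.134.

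Among genes reported to mark reactive astrocytes, 5 of 28 tested were higher, 1 lower and 22 did not pass. Across all genes tested 7.79% were higher and 4.90% lower. The median log2 fold change of the 28 was 0.08. The lower gene, Chi3l1, fell 1.19-fold from 79.3 ± 8.56 to 66.7 ± 5.52 CPM (FDR = 0.0456). Fkbp5, a glucocorticoid-induced gene on that list, rose 1.51-fold from 32.2 ± 1.59 to 48.7 ± 6.41 CPM (FDR = 0.000253). Lcn2, for lipocalin 2, was low, at 2.02 ± 0.611 CPM in euhydrated rats, and rose 1.68-fold (FDR = 0.0147), and Osmr, for the oncostatin M receptor, by 0.59 on the log2 scale from 3.03 ± 0.524 CPM (0.0107). Fkbp5 passed in all 22 alternatives, Lcn2 in 20 (FDR up to 0.546) and Osmr in 19 (FDR up to 0.0822). Among the other astrocyte markers the metallothionein genes Mt2A and Mt1, which bind metals and respond to glucocorticoids, rose 1.84- and 1.52-fold (FDR = 0.00103 and 0.0243), from 6.05 ± 0.842 and 2.43 ± 0.302 CPM. Mt2A passed in 21 of 22 alternatives (FDR up to 0.0906) and Mt1 in 15 (FDR up to 0.573). The Mt1 call was lost in 5 of the 10 fits without 1 library. The rise was not shared by every metallothionein gene listed. Mt3, with a mean of 143 CPM over all libraries, did not pass (log2 fold change 0.020 ± 0.04, FDR = 0.826). On the whole list of other astrocyte markers 5 genes were higher and 5 lower. The lower genes were Gjb2, Id3, Entpd2 (log2 fold change -0.27, FDR = 0.00923), Slc14a1 (-0.24, 0.0269) and Tril (-0.15, 0.0444).

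**Figure D3:**
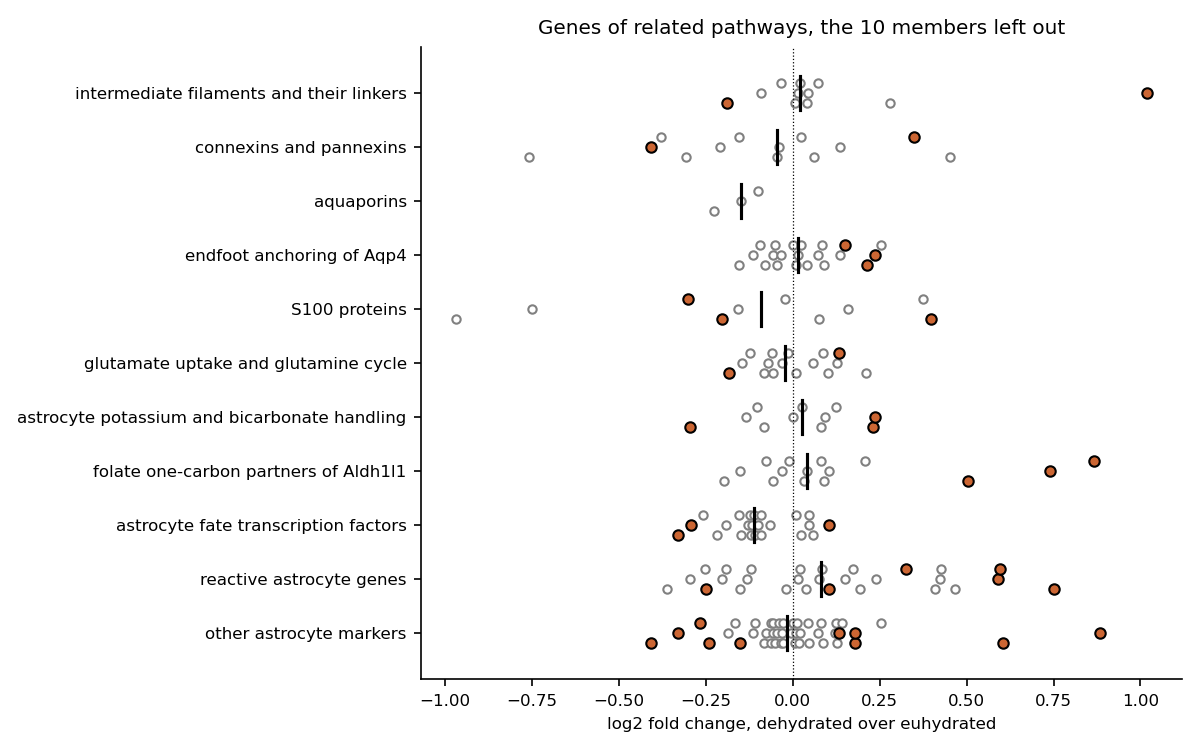
Log2 fold change, dehydrated over euhydrated (horizontal axis), of every tested gene of 11 lists of related function, the 10 members left out. Each point is a gene, filled where the FDR is under 0.05, and the black bar is the list's median; medians lie between -0.15 (aquaporins) and 0.08 (reactive astrocyte genes), and Prph, at 1.02, is the point farthest to the right.

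Some libraries were high or low for several members at once. Dehydrated 4 had the highest level of its group for 7 of the 10 genes (Gfap, Nes, Aqp4, Gja1, S100b, Aldh1l1 and Sox9), and dehydrated 5 the lowest for 7 (Vim, Nes, Gja1, Gjb6, S100b, Glul and Aldh1l1). Among euhydrated libraries, number 5 was highest for Gfap, Aqp4, Gja1 and Aldh1l1, and number 4 lowest for Gfap, Aqp4, Gja1, Gjb6, S100b and Sox9. Dehydrated 4 also had the highest share of its counts in the 10 genes, 0.754%, and dehydrated 5 the lowest, 0.645%.

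After each group's mean was subtracted, Gfap, Aqp4, Gja1, S100b and Aldh1l1 varied together over the 10 libraries, with Pearson correlations of log2 CPM of 0.53 to 0.84 over their 10 pairs. Vim, Gjb6 and Glul were correlated with each other at 0.29 to 0.68 over 3 pairs, and with the former 5 genes at -0.31 to 0.28. All 45 pairs of members ran from -0.31 to 0.84, with a median of 0.28. These sets were formed after the values were seen, the correlations share library depth and scaling, and they are given as descriptions without a test. Glul was the member least like the rest, with a correlation of 0.14 with the mean of the other 9. Gja1 and S100b were the most like, at 0.84 and 0.83.

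Outside the members, the 5 genes most like the mean of the 10 by the same measure over 10 libraries, among genes with a mean of at least 5 CPM, were Aplnr (0.96), Lrp4 (0.94), Aebp1 (0.93), Gal3st4 (0.92) and Gfpt2 (0.91). They were picked as the highest of all genes tested, so no test applies. None of the 5 passed between the groups; Aplnr, for the apelin receptor, was nearest, at a log2 fold change of -0.23 (FDR = 0.0692).

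**Figure D4:**
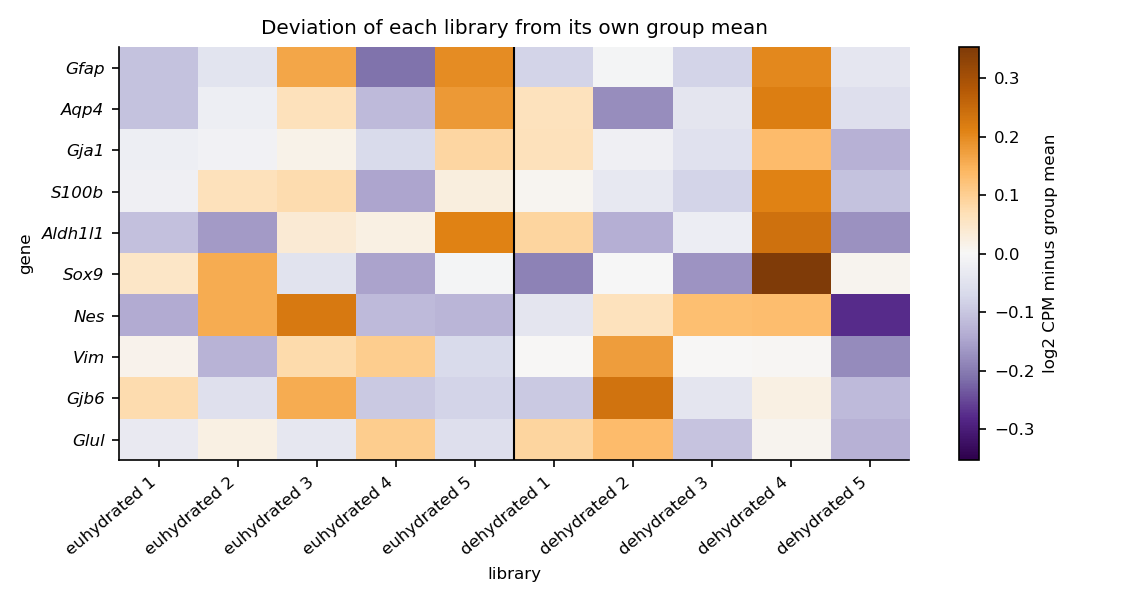
Deviation of each library from its own group mean (log2 CPM minus group mean, colour scale) for the 10 genes, with the vertical line separating euhydrated from dehydrated libraries. Dehydrated 4 is the highest of its group in the upper 7 genes (Gfap to Nes), and dehydrated 2 is the highest in the lower 3 (Vim, Gjb6 and Glul).

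Markers of other cell types in the punches were counted in the same way. Of 12 ependymal and tanycyte markers 0 passed, also at an unadjusted p under 0.05 and in DESeq2. Of 13 microglial markers 0 passed in edgeR, but 7 were lower and 1 higher at an unadjusted p under 0.05, 2 were lower in DESeq2, and 6 were lower in edgeR when scaled to library totals. Of 12 pericyte and smooth muscle markers 1 was higher in edgeR and 2 in DESeq2, with a median log2 fold change of 0.14 and a summed level of 964 to 1216 CPM in the euhydrated and 963 to 1316 CPM in the dehydrated group. Their part in the level of Vim, which these cells also express, was not tested. Of 10 oligodendrocyte precursor markers 1 was higher, Cspg4, which is also on the pericyte list (log2 fold change 0.23, FDR = 0.0198), with a median log2 fold change of -0.048. Of 13 neuronal markers 2 were higher and 1 lower. Erythrocyte markers stood apart, with a summed level of 1105 to 2125 CPM in the euhydrated group, 667 to 1513 CPM in the dehydrated group and 1 of 7 lower by the test. With the mean erythrocyte level as a covariate Glul had a log2 fold change of 0.46 ± 0.05 (FDR = 0.000122) and Nes 0.36 ± 0.15 (0.201).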

How the data were processed

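The authors deposited a table of raw counts of reads per Ensembl gene, whole numbers without normalisation, and the output of their own comparison. Per the file headers that output gives a log2 fold change and its SE, the Wald score, p-values before and after adjustment, and a signal per sample, the normalised count. The submitters' processing notes name CASAVA, FastQC, STAR, featureCounts and DESeq2 1.28.1. They give no genome build, annotation or strand setting, so overlapping or antisense genes are uncertain; per the labels' protocols the mRNA kit kept strand. Symbols came from the authors' deposited comparison. Columns were tied to samples by name. For euhydrated 3 to 5 the labels hold 2 differing numbers, so these columns were tied to the group only, and libraries carry the column number.

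Genes were kept with filterByExpr (15311 of 32402) and scaled by TMM. Both groups of 5 were compared in edgeR 4.0.16 under R 4.3.3 (robust quasi-likelihood fit, no covariate), with Benjamini-Hochberg adjustment over all genes (FDR). Log2 CPM used a prior count of 2. The SE is the log2 fold change over the square root of F. Ratios of genes were tested over all 252 labellings of the libraries, where p cannot go below 0.00794. No pair of libraries within a group was alike within sampling noise (chi-square over degrees of freedom at least 4.86). Members and lists were chosen with earlier results of these data known. Of 335 distinct list genes, the members included, 321 matched by symbol, and 29 of these had too few counts to test. The other 14 had no single match by symbol or other name and were not analysed. Named genes are the members and the 5 genes most like the members. From each related list the 3 largest changes past the threshold are named, otherwise the 2 with the highest mean CPM. Slc1a2, Slc1a3, Mt3 and some other genes were added after their values were seen. Alternatives were DESeq2 size factors, library totals, 2 other filters, DESeq2 1.42.0, limma-voom 3.58.1, replicate blocks, 4 marker covariates and each library left out.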

Additional observations from a re-analysis of the deposited data

Results flagged for a closer look

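Gfap in dehydrated 4 stood apart from the rest of its group. It was at 1583 CPM, the next library was at 1370 CPM, and the gap took 0.759 of the group's whole range, above the 95% critical value of 0.71 for 5 samples. It was 1 of 20 groups of 5 values examined, and chance flags about 1 in 20. The same library was the highest of its group for 6 further members.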

How the results depend on the processing

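Glul passed in all 22 alternatives, with a log2 fold change of 0.31 to 0.47 and FDR of 2.54e-09 to 0.00447. Gfap, Aqp4, Gja1 and S100b kept a negative and Vim and Nes a positive log2 fold change in all 22. The sign of Gjb6 turned with the meningeal covariate (-0.012), that of Aldh1l1 with the replicate block over numbers 1 and 2 (0.033), and that of Sox9 with the oligodendrocyte (0.036) and meningeal (0.076) covariates and without 3 single libraries (-0.11 to 0.030 over all 10). The number of members past the threshold was 1 to 3 without single libraries and 1 otherwise, and the Gfap to Vim difference was -0.31 to -0.17 without single libraries. Over all genes 1942 passed (1192 higher, 750 lower), 1267 with the meningeal and 800 with the erythrocyte covariate; these marker levels differed between the groups by 0.16 and -0.73 (log2). Library totals gave 904 higher and 1173 lower and a median log2 fold change of -0.033 over all genes. The labels do not say that equal numbers mark shared animals, and same-numbered libraries correlated at -0.068 to 0.14 in their deviations from group means. A replicate block over the 4 libraries numbered 1 and 2 left 492 genes, with fewer samples, and a block by column number 1956. Glul passed in both. Depth limits Nes most, at 112 counts in its smallest library.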
